A study of Mus musculus with 7 samples.

Results

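Toll-like receptors are the 10 genes described here, Tlr1 to Tlr9 and Tlr13, picked by name out of 24084 genes with reads in at least 1 of 7 RNA libraries. All 10 passed the filter on low counts that left 16226 genes for testing. The RNA came from tumor-associated macrophages, sorted by flow cytometry as F4/80+ cells out of Lewis lung carcinomas, tumors formed by an inoculated mouse lung cancer line beneath the skin. The 3 Dicer1-deleted libraries were from mice labelled LysM-Cre;Dicer–/– (D–/–), homozygous for the LysM-Cre and the Dicer lox alleles. The 4 control libraries were from LysM-Cre; Dicer+/+ (D+/+) mice. Controls thus carried the same Cre, which is inserted in the lysozyme M gene Lyz2 and is active in macrophages, monocytes and neutrophils. The control label as quoted gives no number of Cre copies. The labels give neither age nor sex, and do not say that each library was a separate animal, so the p-values cover only the variation among the 7 libraries, which may be technical. The comparison asks how the receptors differ when the macrophages lack Dicer1, the enzyme that releases mature microRNAs from their hairpins.

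Toll-like receptors sense molecules of microbes and of damaged cells. Tlr1, Tlr2, Tlr4, Tlr5 and Tlr6 act at the cell surface, where Tlr2 pairs with Tlr1 or Tlr6 to bind bacterial lipopeptides, Tlr4 binds lipopolysaccharide and Tlr5 binds flagellin. Tlr3, Tlr7, Tlr8, Tlr9 and Tlr13 act in endosomes and recognise nucleic acids. Most signal through the adaptor Myd88 to NF-kB, while Tlr3 uses Ticam1 (TRIF) and Tlr4 uses both. Macrophages are a main site of their expression.

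The sequences that bear on a Dicer1 deletion are the microRNA seeds and the receptor sites that match them. The longest annotated 3' UTRs of the 10 receptors were searched for perfect matches to bases 2 to 8 (the seed) of 15 microRNAs, most of them known from myeloid cells. Tlr1, Tlr3, Tlr6 and Tlr13 held a match, and Tlr2, Tlr4, Tlr5, Tlr7, Tlr8 and Tlr9 held none. The 4 microRNAs with a match in a receptor follow, read 5′ to 3′ from RefSeq, with the seed in capitals. The let-7 sequence stands for let-7a and let-7i, which share a seed.
mmu-let-7a-5p: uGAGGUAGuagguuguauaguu
mmu-miR-223-3p: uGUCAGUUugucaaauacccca
mmu-miR-24-3p: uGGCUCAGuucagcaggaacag
mmu-miR-16-5p: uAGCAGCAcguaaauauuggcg
The matching stretches of the receptors' 3' UTRs (GENCODE mouse release 21, GRCm38), with the match in capitals, show which receptor carries which site.
Tlr6, let-7: aagaaagaaggCTACCTCaactgtatgtg
Tlr6, miR-24: ccttgattccaCTGAGCCaggggatgagg
Tlr13, miR-24: gctcagaccagCTGAGCCaccaggaaagg
Tlr13, miR-223: gaagtctctgaAACTGACcagggactagg
Tlr3, miR-223: agacctagcacAACTGACtccatgatgga
Tlr1, miR-16: ctcaatgatgtTGCTGCTctggggagttc
The let-7 match of Tlr6 covers bases 891 to 897 of a 3' UTR of 1111 bases. In 12153 annotated 3' UTRs of tested genes, the let-7 letters occurred in 11.8%, those of miR-223 in 9.82%, those of miR-24 in 20.6% and those of miR-16 in 27.0%. In 3' UTRs within 10% of the receptor's own length, the shares were lower. For Tlr6 they were 9.88% (let-7) and 15.2% (miR-24), and for Tlr13 14.0% (miR-24) and 5.79% (miR-223). For Tlr3 the share was 8.21% (miR-223), and for Tlr1, with a 3' UTR of 166 bases, 3.37% (miR-16). A match is a run of letters and no measure of binding, and microRNAs were not measured in these libraries.

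Promoters of the 3 receptors with the largest fold changes among the 10 are shown next, from 250 bases before to 50 after the start site, with the letters GAGGAA in capitals (TTCCTC where they lie on the other strand). These letters are a core of the site of PU.1, the factor that sets up macrophage genes. Sequences are from RefSeq (GRCm38.p6), on the strand of the gene. The promoter of Tlr9 is chr9:106222348-106222647 on the plus strand, that of Tlr1, 1 of 2 in the table, chr5:64933509-64933808 on the minus strand and that of Tlr13 chrX:106143025-106143324 on the plus strand.
Tlr9: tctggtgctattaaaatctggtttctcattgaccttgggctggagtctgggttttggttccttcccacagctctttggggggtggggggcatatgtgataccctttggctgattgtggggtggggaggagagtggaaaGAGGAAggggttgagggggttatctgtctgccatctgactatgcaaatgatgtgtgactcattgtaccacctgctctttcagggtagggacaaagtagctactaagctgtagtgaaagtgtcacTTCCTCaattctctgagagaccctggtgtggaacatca
Tlr1: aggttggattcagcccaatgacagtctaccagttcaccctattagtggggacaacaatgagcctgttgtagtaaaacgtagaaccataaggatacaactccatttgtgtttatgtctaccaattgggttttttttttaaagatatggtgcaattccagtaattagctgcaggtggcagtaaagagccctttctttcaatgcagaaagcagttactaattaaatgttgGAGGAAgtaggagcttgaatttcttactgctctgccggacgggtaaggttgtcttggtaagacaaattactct
Tlr13: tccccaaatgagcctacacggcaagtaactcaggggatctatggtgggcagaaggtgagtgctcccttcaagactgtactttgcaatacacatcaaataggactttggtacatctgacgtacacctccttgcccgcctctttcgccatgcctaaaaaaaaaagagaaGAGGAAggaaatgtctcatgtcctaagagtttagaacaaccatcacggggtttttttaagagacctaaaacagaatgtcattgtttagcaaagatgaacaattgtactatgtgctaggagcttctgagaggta
RefSeq's table held 10 promoters for 8 of the receptors, since Tlr1 and Tlr6 have an extra start site each, and had no entry for Tlr4 and Tlr7. On either strand, 4 of these 10 held GAGGAA (Tlr8, Tlr9, Tlr13 and 1 of the 2 of Tlr1), beside 28.3% of all 32851 promoters of this length. The Tlr1 promoter shown is the one that holds it, and the other, chr5:64932650-64932949, does not. Tlr9 held it at 2 places. The AP-1 letters TGANTCA were in 1 receptor promoter, that of Tlr9, beside 7.81% of all. The interferon-stimulated letters GAAANNGAA were in 2, those of Tlr6 and Tlr8, beside 8.56%. An NF-kB motif was in 2, those of Tlr2 and Tlr3, beside 8.46%. The composite PU.1 and IRF letters GGAANNGAA were in none of the 10, beside 8.24% of all. These are descriptions of the letters only, and binding was not measured.

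Depth was 42.975 to 51.152 M uniquely placed reads per library, with both mates of a pair counted. Dicer1, the targeted gene, had 6.86 to 7.86 CPM (counts per M reads) in Dicer1-deleted and 15.7 to 18.6 in controls, which is a log2 fold change of -1.16 ± 0.23 (SE), with an adjusted p of 0.150 in edgeR's quasi-likelihood test and of 0.000133 in DESeq2. All values below are CPM scaled by TMM factors, and fold changes are log2, Dicer1-deleted over control. The SE, here and above, is the absolute fold change divided by the square root of the F statistic of edgeR's test. The p-values are adjusted over all tested genes by Benjamini-Hochberg. In 3 libraries, Dicer1-deleted replicate 2 and control replicates 1 and 2, genes with long transcripts were lower than in the other 4 libraries. The slopes on a doubling of transcript length, over 8727 genes, were -0.26, -0.10 and -0.15 on the log2 scale in these 3, and 0.10 to 0.15 in the others. This split of the libraries crosses the genotype and the L4 and L5 codes of the titles, whose meaning is not stated. The macrophage markers Adgre1 (F4/80), Csf1r, Cd68 and Itgam were abundant in every library, the lowest value being 233 CPM for Adgre1.

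No toll-like receptor passed edgeR at an adjusted p of 0.05, where 4 of 16226 genes (0.0247%) did. At an unadjusted p of 0.05, 2 of the 10 passed, Tlr1 and Tlr9, beside 8.01% of all tested genes. DESeq2 called 1 of the 10, Tlr9, as higher, beside 0.776% of all genes with an adjusted p. The limma-voom fit with quality weights also called 1, again Tlr9, beside 0.228% of all. The median log2 fold change of the 10 was 0.32 and that of all tested genes 0.03, and 9 of the 10 were positive, beside 52.6% of all. Tlr9 was also the one receptor of the 10 whose values did not overlap between the groups; 3.86% of tested genes were higher without overlap and 5.44% lower. The receptors follow by their place in the cell.

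**Figure D1:**
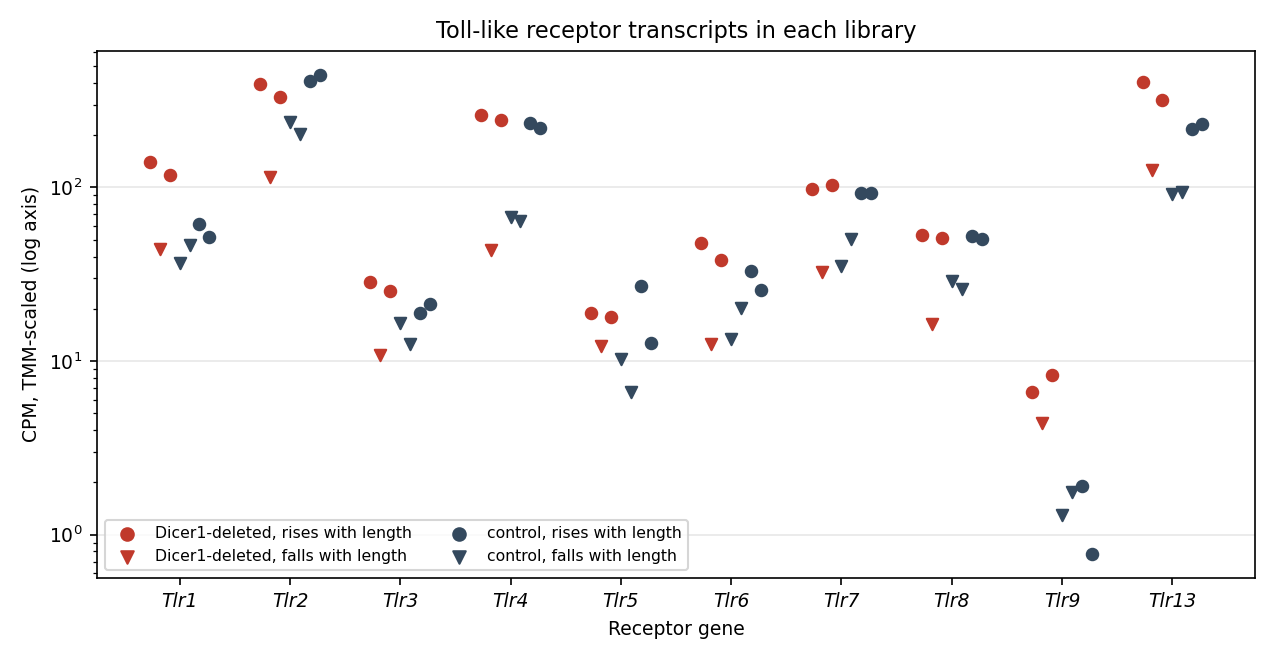
Points are TMM-scaled CPM (log axis) of the 10 receptors in the 7 libraries; red is Dicer1-deleted, blue-grey is control, and triangles mark the 3 libraries whose genes fall with transcript length. The triangles are the 3 lowest points of every receptor except Tlr9, and only Tlr9 has groups that do not overlap.

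Tlr9 is the endosomal receptor for unmethylated CpG DNA. It was at 6.64, 4.37 and 8.32 CPM in the Dicer1-deleted libraries and at 1.30, 1.75, 1.90 and 0.775 in the control libraries. Every Dicer1-deleted library was thus above every control library, at a mean of 6.45 ± 1.98 (SD, n = 3) against 1.43 ± 0.505 (SD, n = 4). The log2 fold change was 2.17 ± 0.40 with an adjusted p of 0.116 in edgeR and 7.96e-05 in DESeq2. DESeq2 kept its call without each library in turn, with adjusted p from 5.33e-05 to 0.0110, while edgeR's ranged from 0.123 to 0.315. Control libraries held only 34 to 104 reads of the gene. Tlr9 lies at chr9:106222598-106226883 (plus strand) and its transcript of 3478 bases has 56.2% GC, above the median of 49.2% for tested genes. Tlr9 followed the split of the libraries by transcript length in the Dicer1-deleted group alone. Its mean in libraries of rising slope was 1.71 times that in falling ones there, and 0.876 times in controls. Since its groups did not overlap, the 3 libraries of falling slope could not be its lowest. Within the libraries of rising slope the fold change was 2.49 (2 libraries against 2), and within those of falling slope 1.51 (1 against 2).

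Tlr7 and Tlr8, neighbours on the X chromosome that recognise single-stranded RNA, showed no such difference. Tlr7 was at 97.8, 32.6 and 103 CPM in Dicer1-deleted and at 35.4, 50.3, 92.5 and 93.0 in control libraries. High and low values fell in both groups, and the log2 fold change was 0.20 ± 0.47 (adjusted p = 0.996). Tlr8 was at 52.9, 16.3 and 50.8 CPM against 28.7, 26.1, 52.5 and 50.6. Its fold change was 0.02 ± 0.44, and 4 libraries, both genotypes among them, lay within 50.6 to 52.9 CPM.

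Tlr13, which recognises bacterial ribosomal RNA and is found in mice but not in humans, was the most abundant endosomal receptor per kilobase; it lies at chrX:106143204-106160493 on the plus strand. Its CPM were 405, 127 and 319 in Dicer1-deleted and 91.9, 94.2, 218 and 232 in control libraries. The lone low Dicer1-deleted library lay above the low controls and below the high ones, so the groups overlapped. The fold change was 0.83 ± 0.48 (adjusted p = 0.807). Within the libraries of rising slope it was 0.69 and within those of falling slope 0.44, positive in both. Tlr3, the receptor for double-stranded RNA, was at 28.4, 10.9 and 25.4 CPM against 16.5, 12.5, 18.9 and 21.2, with a fold change of 0.32 ± 0.35. A predicted gene overlaps Tlr3 on the other strand, and the protocol keeps no strand, so their reads cannot be told apart.

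Among the surface receptors, Tlr1 (chr5:64924679-64933563, minus strand) differed most. It was at 139, 44.2 and 117 CPM in Dicer1-deleted libraries and at 36.7, 46.7, 61.7 and 51.8 in control libraries. Dicer1-deleted replicates 1 and 3 lay above all controls and replicate 2 lay among them. The log2 fold change was 1.03 ± 0.38, with an unadjusted p of 0.0243 and an adjusted p of 0.486 in edgeR. Without Dicer1-deleted replicate 2, the lowest of the 3, it was 1.38, with an adjusted p of 0.123 in edgeR and of 0.000668 in DESeq2, which with all 7 libraries gave 0.228. In the libraries of rising slope the fold change was 1.18, and in those of falling slope 0.08.

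Tlr2, the partner of Tlr1 and Tlr6, was the one receptor with a negative fold change; it lies at chr3:83836272-83841767 on the minus strand. Its CPM were 396, 115 and 332 in Dicer1-deleted and 239, 202, 408 and 446 in control libraries, a fold change of -0.20 ± 0.46 (adjusted p = 0.996). Without Dicer1-deleted replicate 2 the sign turned, to 0.16. Within the libraries of falling slope the fold change was -0.94 (1 library against 2), and within those of rising slope -0.23. Tlr6 was at 47.8, 12.6 and 38.2 CPM against 13.4, 20.2, 32.9 and 25.7, with a fold change of 0.51 ± 0.46 (adjusted p = 0.973). This is the receptor with the let-7 match shown above; the other matches lie in Tlr1, Tlr3, and Tlr13, and the receptor with the largest fold change, Tlr9, has none of the 15.

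Reads of Tlr1 and Tlr6 can be confused, because these neighbours on chromosome 5 arose by duplication. Of the 50-base windows of the longest Tlr1 transcript, 15.3% occur unchanged in Tlr6, and the longest identical run covers 229 bases (bases 1939 to 2167 of Tlr1 and 1652 to 1880 of Tlr6). A read pair that lies wholly within the run that follows cannot be placed on one gene by its letters.
Tlr1 and Tlr6 shared run: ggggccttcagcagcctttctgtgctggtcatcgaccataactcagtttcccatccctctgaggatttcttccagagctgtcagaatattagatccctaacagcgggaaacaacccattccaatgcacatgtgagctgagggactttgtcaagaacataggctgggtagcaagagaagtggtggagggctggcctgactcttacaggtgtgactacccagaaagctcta
Of the reads credited to these genes with multiply placed reads included, 1.20% to 1.76% were multiply placed for each of them in any library. Adding these reads left the fold change of Tlr1 at 1.03. At so small a share, nearly equal for both genes within a library, they could hardly move it. This therefore cannot show whether shared reads were credited to the right gene.

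Tlr4, the lipopolysaccharide receptor, had the largest SE of the 10. It was at 260, 43.7 and 246 CPM in Dicer1-deleted and at 67.7, 64.1, 235 and 219 in control libraries. The control libraries alone differed 3.44-fold between the means of the 2 high and the 2 low ones. Against that spread the fold change between genotypes was 0.32 ± 0.66 (adjusted p = 0.996). Tlr5 was at 18.9, 12.2 and 17.9 CPM against 10.3, 6.60, 27.1 and 12.6, with a fold change of 0.21 ± 0.45.

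**Figure D2:**
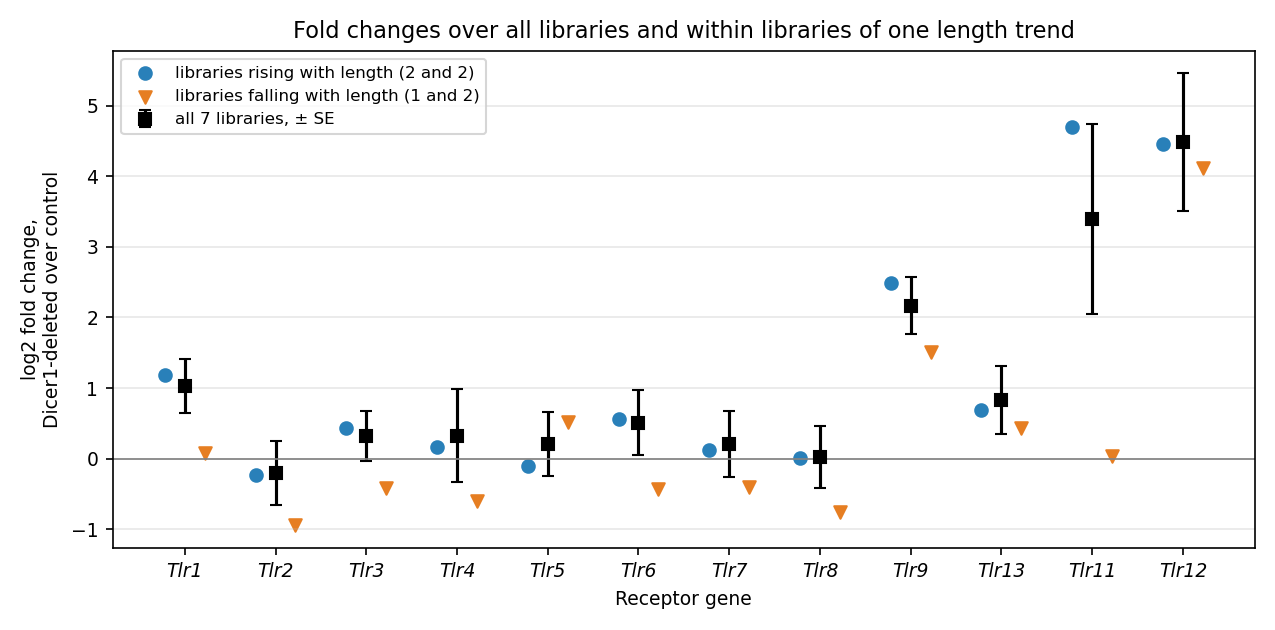
Black squares are log2 fold changes over all 7 libraries with the SE derived from edgeR's F statistic, for the 10 receptors and for Tlr11 and Tlr12. Blue circles and orange triangles are the same within the 4 libraries of rising and the 3 of falling slope on transcript length, with no error given; Tlr1, Tlr9, Tlr11, Tlr12 and Tlr13 are positive in both.

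The 9 receptors other than Tlr9 shared 1 pattern across libraries: the 3 lowest values of each were those of Dicer1-deleted replicate 2 and control replicates 1 and 2. Of 15323 tested genes with a transcript sequence, 17.9% had these 3 libraries lowest, and 23.1% of the 3604 genes with transcripts of 3000 to 4500 bases, a range that holds all the receptors. The receptors' longest transcripts run from 3014 to 4407 bases, against a median of 2829 for tested genes. The ratio of high to low libraries differed between receptors within the control group alone, from 1.36 for Tlr1 to 3.44 for Tlr4. Correcting each library for its trends with transcript length and GC content moved the fold change of Tlr1 to 1.05 and that of Tlr9 to 2.13, and no receptor passed edgeR with that correction. Whether RNA quality or the state of the cells moved with the split was not tested.

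Per kilobase of annotated exon, the summed level of the 10 receptors was 271 ± 141 (SD, n = 3) CPM per kb in Dicer1-deleted and 226 ± 91.5 (SD, n = 4) in control libraries, a difference within the spread. The order of levels in control libraries was Tlr2 at 107 ± 40.2 CPM per kb, Tlr13 at 36.9 ± 17.8, Tlr4 at 26.4 ± 16.8, Tlr7 at 16.6 ± 7.21, Tlr1 at 14.7 ± 3.11 and Tlr8 at 11.01 ± 3.90. Below these came Tlr6 at 6.19 ± 2.22, Tlr3 at 3.32 ± 0.716, Tlr5 at 2.96 ± 1.88 and Tlr9 at 0.411 ± 0.145 (SD, n = 4 throughout). Only the step from Tlr2 to Tlr13 and that from Tlr5 to Tlr9 had ranges that stood apart in the controls. Within single libraries most neighbours kept their order, but Tlr7 was above Tlr1 in 2 of 4 control libraries and in 0 of 3 Dicer1-deleted ones. Tlr4 was above Tlr7 in 3 of 4 and 2 of 3, and Tlr3 above Tlr5 in 3 of 4 and 2 of 3.

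As shares of that per-length total, some receptors whose CPM overlapped did not overlap between the 2 groups. Shares remove a change common to all receptors, but not the split of the libraries, which the receptors followed unequally. Tlr4 made up 8.13% and 8.03% in the 2 control libraries of falling slope, and 14.0% and 12.8% in those of rising slope. Tlr2 made up 34.9%, 34.6% and 33.9% in Dicer1-deleted and 52.9%, 46.6%, 44.7% and 48.1% in control libraries. Every Dicer1-deleted value was below every control value, with means of 34.5% ± 0.476 and 48.1% ± 3.52. Tlr13 made up 25.0%, 26.6% and 22.9% against 14.3%, 15.2%, 16.7% and 17.5%, and Tlr1 11.05%, 11.95% and 10.8% against 7.33%, 9.72%, 6.09% and 5.04%. Both were higher in every Dicer1-deleted library. Tlr9 was higher as well, at 0.507% to 1.14% against 0.0725% to 0.350%, and Tlr8 lower, at 3.91% to 4.37% against 4.59% to 5.35%. The shares of Tlr3, Tlr4, Tlr5, Tlr6 and Tlr7 overlapped between the groups. Shares sum to 100%, so a larger share of one receptor lowers those of the others. The shares without overlap are therefore not separate results, and no background over all genes is given for them.

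**Figure D3:**
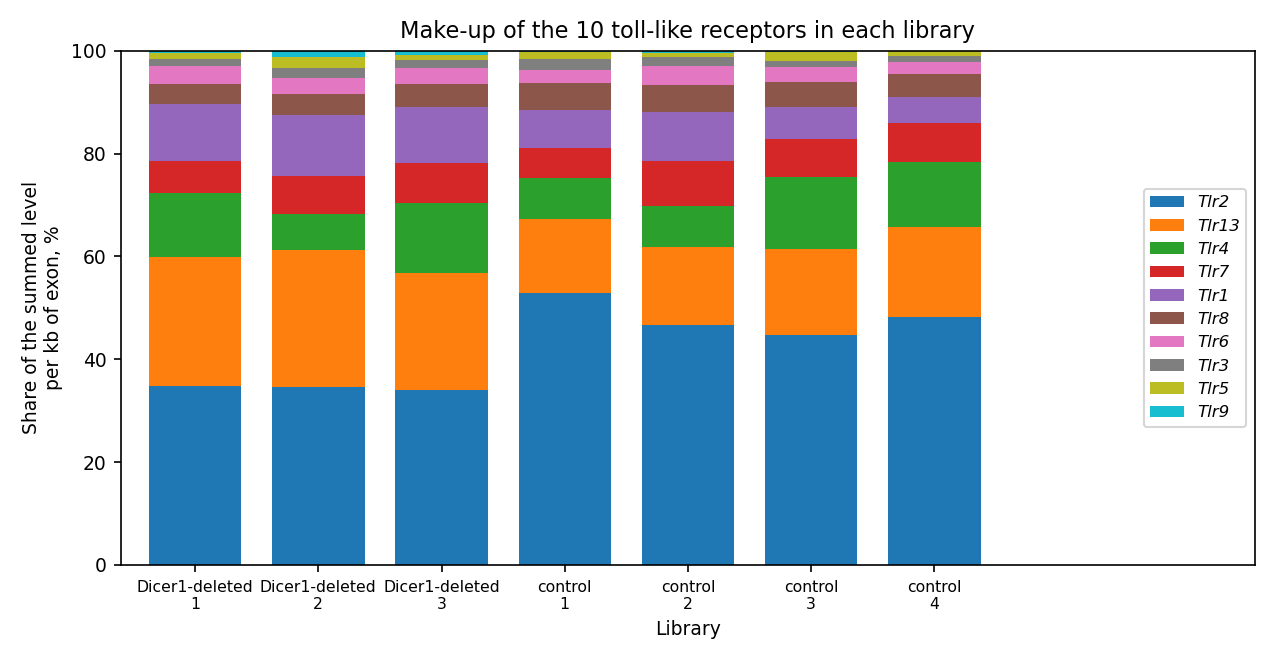
Stacked bars are each receptor's share of the summed level per kb of exon in each library, in percent, from 0 to 100. Tlr2 takes 33.9% to 34.9% in the 3 Dicer1-deleted libraries and 44.7% to 52.9% in the 4 control libraries, and Tlr13 is wider in the former.

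The same values read as ratios to Tlr2 within each library, a reference taken after its values were seen. Tlr13 per Tlr2 was 0.716, 0.770 and 0.673 in Dicer1-deleted and 0.269, 0.326, 0.374 and 0.364 in control libraries, on the per-length scale. The low library, Dicer1-deleted replicate 2, stood with its group here, unlike in CPM. Tlr1 per Tlr2 was 0.317, 0.346 and 0.318 against 0.138, 0.208, 0.136 and 0.105, and Tlr6 per Tlr2 was 0.0976, 0.0882 and 0.0931 against 0.0453, 0.0810, 0.0653 and 0.0466. The partners of Tlr2 were thus both higher relative to it in all 3 Dicer1-deleted libraries. In all, 6 of the other 9 receptors (Tlr1, Tlr3, Tlr6, Tlr8, Tlr9 and Tlr13) had a ratio to Tlr2 that was higher without overlap, beside 4.13% of 16225 tested genes. These ratios share their denominator, so they are not separate results. Tlr2 had the only negative fold change among the receptors, so positive differences for the other 9 followed from that choice. The 3 libraries of falling slope were lowest for Tlr2 and most other receptors, but for only 17.9% of tested genes with a transcript sequence. Dividing by Tlr2 thus lessens a split that most genes did not share, and the 4.13% is no like background. The log2 differences of the ratios ran from 0.21 for Tlr8 to 2.51 for Tlr9. No test was run on shares and ratios, since with 3 against 4 libraries an exact permutation test cannot go below a two-sided p of 0.0571.

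**Figure D4:**
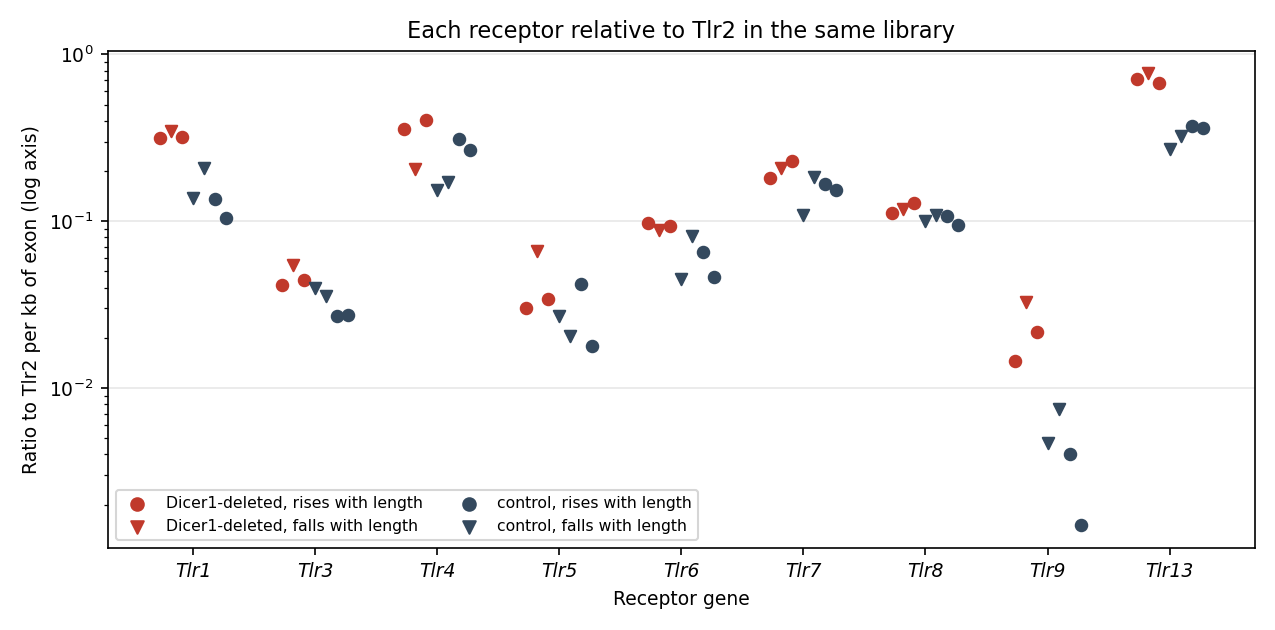
Points are the level per kb of exon of 9 receptors divided by that of Tlr2 in the same library (log axis); colours and symbols mark genotype and the slope on transcript length. For Tlr13 and Tlr1 the 3 red points lie close together and above the 4 control points, which hold 0.269 to 0.374 and 0.105 to 0.208.

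Genes whose pattern over the 7 libraries was most like that of a receptor were sought for Tlr1 and Tlr2, the largest positive and the only negative fold change among receptors of at least 5 CPM. The measure was the root mean square difference of log2 CPM, each gene centred on its mean, over 10317 genes. For Tlr1 the nearest were Sfxn5 (a sideroflexin), Abcg3 (a transporter), Gba2 (a glucosylceramidase), Plekhg2 and Arhgap19, at 0.18 to 0.22, where Tlr1 itself varied by 0.68. Among receptors Tlr6 came nearest to it, in place 32 at 0.31, and Tlr13 in place 65. For Tlr2 they were Cdv3, Rnf6 (a ubiquitin ligase), Plekhb2, Acadsb (an acyl-CoA dehydrogenase) and Tbc1d15 (a Rab regulator), at 0.07 to 0.11, and Tlr8 followed in place 19 at 0.13.

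Tlr11 and Tlr12, the profilin sensors of mouse dendritic cells, are not among the 10 and had few reads. Tlr12 was at 6.77, 2.64 and 3.93 CPM in Dicer1-deleted and at 0.252, 0.0449, 0 and 0.501 in control libraries. The groups did not overlap, with a log2 fold change of 4.48 ± 0.98 (adjusted p = 0.165 in edgeR, 0.000224 in DESeq2). Controls held 0 to 22 reads of it. Tlr11 was at 2.53, 0.152 and 0.598 CPM against 0.293, 0, 0.109 and 0, with an adjusted p of 0.529 in edgeR.

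Tlr9, Tlr11 and Tlr12 are known from dendritic and B cells, so their markers were read beside them. The cells were sorted as F4/80+, a macrophage marker that B cells lack, and the purity of the sort was not tested. Of 8 markers of conventional type 1 dendritic cells, all tested, DESeq2 called 2 as higher (0.776% of all genes) and 3 were higher without overlap (3.86% of all). Their summed level was 107 to 149 CPM in Dicer1-deleted and 51.6 to 108 in control libraries. Most of it was Cadm1 and Wdfy4, whose values overlapped between the groups. Xcr1, the chemokine receptor that defines these cells, was at 5.27, 2.64 and 5.51 CPM against 0.880, 0.539, 0.474 and 1.504 (fold change 2.40 ± 0.49, adjusted p = 0.156 in edgeR and 0.000786 in DESeq2). Flt3 had no reads in 2 Dicer1-deleted libraries, and the fold changes of Flt3 (-1.64) and Zbtb46 (-0.93) were negative. Of 8 B cell markers, 5 were tested, and the summed level was 44.9 to 55.2 against 13.7 to 21.2 CPM. DESeq2 called 2 of them, Bank1 and Cd79b, as higher, beside 0.776% of all genes. The defining B cell gene Pax5 was at or near 0, with reads in 1 library. Of 8 plasmacytoid dendritic cell markers, 4 were tested, and the sum was 122 to 166 against 203 to 238 CPM, lower in Dicer1-deleted libraries. Nearly all of it was Bst2 and Tcf4, while Siglech, Ly6d, Klk1 and Pacsin1 were at or near 0. DESeq2 called Tcf4 as lower, where it called 397 of 18166 genes in either direction. In bulk RNA, more cells of a type and more RNA per cell cannot be told apart, and the part of these cells in the levels of Tlr9 and Tlr12 was not tested.

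Markers of other cells moved as follows. Of 18166 genes with an adjusted p, DESeq2 called 397 in either direction and 141 (0.776%) as higher. It called 1 of 9 neutrophil markers in the files, Mmp8, as higher, while Ly6g was at or near 0. The neutrophil sums were 254 to 315 against 177 to 627 CPM. Of 10 monocyte markers it called 1, Treml4, higher in Dicer1-deleted libraries, with sums of 1144 to 2052 against 1045 to 4302 CPM. It called 1 of 10 T and NK cell markers, Nkg7, as higher (sums 8.94 to 18.6 against 6.27 to 9.27 CPM). Of 6 endothelial markers, 3 were tested and it called 1, Pecam1, as higher, with sums of 39.4 to 72.1 against 3.68 to 16.9 CPM. Most of each sum was Pecam1 itself, at 36.3 to 69.6 against 3.23 to 11.9 CPM. Cdh5 and Kdr, the other tested members, overlapped between the groups. Tek and Emcn were at or near 0. Fibroblast markers summed to 18.9 to 27.2 against 15.9 to 33.3 CPM, with 0 of 6 called. Of 13 macrophage markers DESeq2 called 1, Lyz2, as lower (fold change -1.29 ± 0.32, adjusted p = 0.235 in edgeR). Lyz2 is the locus that carries the Cre in both groups, and the number of copies in controls is not given in their quoted label. The part of these genes in the receptors' levels was not tested.

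The pathway around the receptors was read in 8 lists of 95 genes, all tested. edgeR called 0 of the 95, beside 0.0247% of all tested genes, and 11 had an unadjusted p under 0.05, beside 8.01% of all. DESeq2 called 4, all higher, Cd180, Irf8, Cxcl10 and Nod1, beside 0.776% of all genes called higher. The median log2 fold change of the 95 was 0.15, beside 0.03 for all tested genes, with 67 positive and 28 negative. In 7 of the 95 the Dicer1-deleted libraries were all higher, beside 3.86% of all tested genes, and in 2, Cd14 and Fos, all lower, beside 5.44% of all.

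Among 10 co-receptors and chaperones, 0 passed edgeR and the median was 0.14. Cd180, a toll-like receptor homologue that binds Ly86 and tunes the lipopolysaccharide response, was at 65.9, 46.9 and 65.7 CPM against 31.0, 32.5, 28.3 and 38.3. All 3 Dicer1-deleted values were above the controls (fold change 0.87 ± 0.24, adjusted p = 0.283 in edgeR and 0.0288 in DESeq2). That DESeq2 call held in 2 of 7 fits that left out 1 library. Cd14, the co-receptor that hands lipopolysaccharide to Tlr4, was lower at 2934, 3838 and 2643 against 4255, 4450, 4685 and 4324 CPM (-0.50 ± 0.27, adjusted p = 0.764). Hsp90b1, the chaperone that folds most of the receptors, was at 786, 699 and 858 CPM against 687, 598, 691 and 568, without overlap (0.30 ± 0.24, adjusted p = 0.962). Unc93b1, which carries the endosomal receptors out of the endoplasmic reticulum, had a fold change of 0.04 ± 0.26, with 191 to 260 CPM in Dicer1-deleted and 198 to 282 in control libraries. Ly96 (MD-2), the partner of Tlr4, was at 35.5, 84.0 and 32.3 CPM against 41.6, 70.9, 30.5 and 31.6, highest in libraries where Tlr4 was lowest.

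Downstream, 0 of 6 adaptors and 0 of 20 kinases and ubiquitin ligases were called by edgeR or DESeq2, with medians of 0.34 and 0.11. Myd88 was at 129 to 174 against 98.4 to 130 CPM, and the ranges overlapped (0.48 ± 0.24, adjusted p = 0.717). Pik3ap1 (BCAP), an adaptor that links the receptors to phosphoinositide 3-kinase, was at 267, 175 and 194 CPM against 103, 89.8, 152 and 150. All 3 Dicer1-deleted values were higher (0.78 ± 0.29, adjusted p = 0.495). Of 15 inhibitors 0 were called, with a median of 0.19. Nfkbia, the NF-kB inhibitor that NF-kB itself induces, was at 612, 333 and 708.7 CPM against 136, 155, 817 and 755, low in the same control libraries as Tlr4.

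Of 9 transcription factors, with a median of 0.12, DESeq2 called Irf8. This factor of macrophages and type 1 dendritic cells was at 55.5, 109 and 80.3 CPM in Dicer1-deleted and at 30.7, 42.3, 24.8 and 37.2 in control libraries (1.27 ± 0.30, adjusted p = 0.207 in edgeR and 0.0131 in DESeq2). The DESeq2 call held in 3 of 7 fits without 1 library. Fos, an AP-1 subunit, was lower in all 3 Dicer1-deleted libraries at 928 to 1212 against 1295 to 1688 CPM (-0.56 ± 0.26, adjusted p = 0.672). The 4 endosomal proteases, which cut the endosomal receptors into their active form, had a median of -0.17 and 0 calls.

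Of 20 response genes, the cytokines and enzymes that receptor signals induce, edgeR called 0 and DESeq2 1, with a median of 0.30. Cxcl10, an interferon-induced chemokine that draws T cells, was at 483, 837 and 406 CPM against 231, 220, 187 and 217, without overlap (1.43 ± 0.30, adjusted p = 0.162 in edgeR and 0.00152 in DESeq2). That DESeq2 call held without each library in turn. In all, 5 of the 20 had an unadjusted p under 0.05, beside 8.01% of all tested genes: Cxcl10, the cytokines Il1b (1.14 ± 0.43) and Il10 (0.98 ± 0.41), and the chemokines Ccl3 (1.54 ± 0.55) and Ccl4 (1.73 ± 0.60). The values of the last 4 overlapped between the groups, with adjusted p of 0.426 to 0.569 in edgeR. In each of these 4, Dicer1-deleted replicate 2 was highest, replicate 1 lay above all controls and replicate 3 lay within the control range. Ccl4 was at 563, 2138 and 299 CPM against 198 to 419, and Ccl3 at 275, 1009 and 161 against 135 to 220. Il1b was at 3150, 6709 and 2274 CPM against 1103 to 2447. Tnf, Il6 and Nos2 also overlapped, with adjusted p of 0.996 to 0.999 in edgeR. Of 11 other innate sensors, with a median of 0.23, DESeq2 called Nod1, the sensor of a peptidoglycan fragment. It was at 21.8, 30.7 and 30.01 CPM against 6.12, 10.8, 6.93 and 9.02 (1.74 ± 0.28, adjusted p = 0.111 in edgeR and 1.65e-05 in DESeq2), and the DESeq2 call held in 7 of 7 fits without 1 library. Nlrc4, an inflammasome sensor, was at 37.4, 11.1 and 22.5 CPM against 6.41, 7.81, 10.9 and 10.9, higher without overlap (1.39 ± 0.40, adjusted p = 0.310 in edgeR and 0.0575 in DESeq2).

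**Figure D5:**
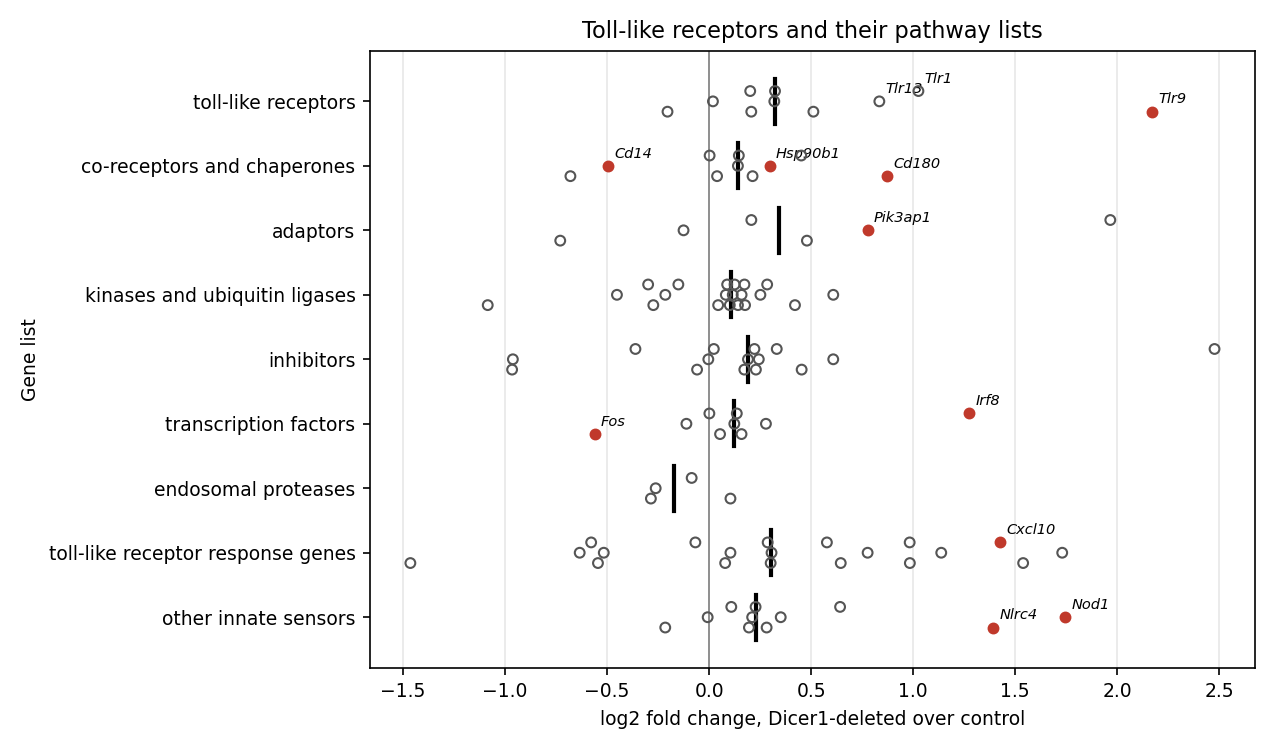
Each circle is 1 tested gene by its log2 fold change, in rows by list; filled red circles are genes whose groups do not overlap, and black bars are list medians. The list medians lie between -0.17 and 0.34, and the red points include Tlr9, Nod1, Cxcl10 and Irf8 on the right and Cd14 and Fos on the left.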

How the data were processed

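Per the labels' protocols, cDNA from 2 ng of total RNA (SMARTer ultra low kit) was made into Nextera XT libraries and sequenced as pairs of 50 bases. The deposited files give counts of uniquely placed reads, estimated counts with fractional shares of multiply placed reads, and RPKM, each per gene and library, per the file headers. The submitters' processing notes name Bowtie2. Neither the build nor the annotation and counter is given in the sources used here.

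Ensembl IDs were matched to GENCODE mouse release 21 symbols (21813 of 24084), and unlisted values were set to 0. The groups, 3 Dicer1-deleted and 4 control libraries, were compared with edgeR 4.0.16 in R 4.3.3 on the unique counts (filterByExpr, TMM, quasi-likelihood F test, Benjamini-Hochberg at 0.05). Alternatives were DESeq2 1.42.0, limma 3.58.1 (voom with quality weights), other scalings, filters and read sets, the L code as covariate, and leaving out each library. Levels per kilobase used summed exon lengths. Scripts were tested on simulated data. The biological coefficient of variation was 45.1%. Without molecular identifiers, reads are not independent molecules. Tables and plots used Python 3.11.15.

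The members and lists were chosen with earlier results of these data known. Named in each pathway list are members called by edgeR or DESeq2 and up to 4 with the largest fold changes among those without overlap and of at least 1 CPM. Myd88, Unc93b1, Ly96, Nfkbia, Tnf, Il6, Nos2, Il1b, Il10, Ccl3, Ccl4 and the markers fall outside this rule and were chosen after their values were seen.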

Additional observations from a re-analysis of the deposited data

How the results depend on the processing

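The number of genes called in all was 4 in edgeR. It was 397 with DESeq2, 80 with limma-voom and quality weights, 42 without a filter, 1 with a filter of 10 CPM in 3 libraries and 0 with the L code as covariate. It was 10 with a transcript length correction and 11 with length and GC, both added after seeing the data. Leaving out 1 library gave 0 to 3 in edgeR and, added after seeing the data, 231 to 400 in DESeq2. Toll-like receptors called were 0 in edgeR, 1 with DESeq2 and 1 with limma-voom (Tlr9), and 1 to 2 in DESeq2 without 1 library, with Tlr1 added without Dicer1-deleted replicate 2. Pathway list members called were 0 in edgeR, 4 with DESeq2, 1 with limma-voom, 1 without a filter and 2 to 5 in DESeq2 without 1 library.

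The fold changes of Tlr1, Tlr9, Tlr11, Tlr12 and Tlr13 kept their sign in all alternatives run for them. Others turned. Tlr2 was 0.20 with limma-voom, 0.13 with the L code as covariate, 0.14 in L4 and 0.089 in L5 libraries alone, -0.94 in the libraries of falling slope, and -0.53 to 0.16 without 1 library (up to 0.17 in DESeq2). In the libraries of falling slope Tlr3 was -0.42, Tlr4 -0.60, Tlr6 -0.43, Tlr7 -0.40 and Tlr8 -0.76, and in those of rising slope Tlr5 was -0.10. Without 1 library the lowest values were -0.015 for Tlr4, -0.012 for Tlr5, -0.055 for Tlr7 and -0.23 for Tlr8, over both tools, and the highest 0.79, 0.74, 0.57 and 0.40. The cause was not tested. Tlr9 was not tested under the filter of 10 CPM. With the deposited RPKM, the share of Tlr2 in Dicer1-deleted libraries was 32.4% and that of Tlr1 13.3%. Control shares by RPKM are not given here, so no difference between the groups can be read from these values. Within L4 libraries Tlr9 was 1.85 (2 against 1) and within L5 libraries 2.29 (1 against 3), and Tlr13 1.24 and 1.13. Tlr11 and Tlr12 rest on few reads, at most 22 in any control library. No paired analysis was possible because the titles number the libraries 1 to 7 without repeats.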
